A study of Mus musculus with 31 samples.

Results

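The distal colon of mice after 14 days of exposure to E171 was set against that of mice after 7 days, in a chemically induced model of colorectal cancer. The comparison used 8 of the 31 arrays of the series, 4 for each day, which were chosen by their labelled exposure and day and by no measured value. Each array held the RNA of 1 BALB/c mouse, and each day was represented by 2 males and 2 females. Mice were killed at each day, so that no mouse was measured at both. All 8 mice had been given azoxymethane (AOM), a colon carcinogen, as a single intraperitoneal injection a week before the start, after having been 4 to 6 weeks old when placed into groups. They had then drunk 2% dextran sodium sulphate (DSS), which injures the colon epithelium, over the first 5 days. From the first day they had also been gavaged, on 5 days a week, with E171 at 5 mg per kg body weight per day (CRC + E171). E171 is food-grade titanium dioxide, a white pigment. The mice that had drunk DSS and been injected with AOM but had been gavaged with water (CRC) served for comparison, with 4 arrays after 7 days and 4 after 14 days. The submitters' treatment note names water for all 31 arrays alike, so that exposure was taken from the title and the treatment characteristic of each sample. Within the CRC + E171 arrays days of E171, age and time since AOM and DSS advanced together and cannot be told apart, whereas the CRC arrays share age and time but not E171. No mice without AOM and DSS were analysed here. Because whole tissue was measured, fewer cells of a type and less RNA per cell cannot be told apart either.

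DSS strips surface cells from the colon and lets bacteria reach the tissue beneath, which draws in neutrophils, monocytes and lymphocytes. As the lining closes, crypt stem cells divide and refill it with colonocytes that take up salt and water, goblet cells that make mucus, and scattered hormone-making enteroendocrine cells. AOM leaves mutated crypt cells behind, and in AOM/DSS mice such cells go on to form tumours. Interferon-stimulated genes, which are turned on by interferons, and the major histocompatibility complex (MHC) class II genes, which present antigen to T cells, follow the immune state of the tissue.

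The level of a gene is given on a log2 scale, as the log2 of its signal minus the log2 of the 75th percentile of all probes on the same array, so that 0 is the level of that percentile and 1 unit is a doubling. Single arrays are listed in the order male 1, male 2, female 1 and female 2. The 75th percentile itself lay between 1912 and 4028 signal units, and 69.6 to 78.9% of the probes were well above background on the 8 arrays. The labelled tissue was checked against its markers. The epithelial gene Epcam was at 4.34 ± 0.12 (SD, n = 4) after 7 days and at 4.35 ± 0.47 (SD, n = 4) after 14 days, and the intestinal gene Vil1, which codes for villin of the microvilli, was at 5.12 ± 0.20 and 5.08 ± 0.89. Both were thus far above the 75th percentile on every array. The female gene Xist lay between -8.32 and -7.85 on the 4 arrays of males and between -1.35 and -0.70 on those of females, and the Y-linked Uty went the opposite way, in keeping with the labelled sexes. Neither these genes nor Kdm5d, also Y-linked, were DEG between the days by the rule given further on.

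The markers did not treat all 8 arrays alike, and 4 of them stood apart. Hoxb13, a gene of the most distal gut, was at 5.70, 5.14, 5.68 and -8.41 after 7 days and at 4.36, 4.50, -1.76 and -6.83 after 14 days. It was thus near the bottom of the scale on both arrays labelled female 2, and low on female 1 of 14 days. Hoxb7, of a more anterior part of the body axis, was at -2.72, -2.47, -2.16 and 2.60 after 7 days and at -2.87, 0.36, 2.32 and 2.69 after 14 days. This is the reverse pattern except on male 2 of 14 days, where Hoxb7 was raised while Hoxb13 was high. Both arrays labelled female 2 also resembled each other more than their own groups. Their correlation over all genes tested, 0.986, was the number 3 of 465 pairs of arrays in the series. The median absolute deviation of their differences, scaled as an SD, was 0.248. It was the number 2 from the bottom, against a median of 0.56 over all pairs. The arrays labelled female 2 nevertheless differed by over 1 log2 unit in 1132 genes, and lay on different slides. Hoxd13, another distal gene, was at 2.38, -0.62, 2.35 and -8.19 after 7 days and at 2.25, 2.28, -5.47 and -7.38 after 14 days. The labelled distal colon was therefore not borne out by these 2 genes on the arrays labelled female 2 and in part on female 1 of 14 days. The list of 11 distal Hox genes did not single these arrays out. Relative to the mean over all arrays it was at 0.25, -0.90, -0.07 and -0.37 after 7 days, lowest on male 2. After 14 days it was at -0.45, 1.34, -1.09 and -0.57.

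A further array stood apart by its cell types. On male 2 of 14 days the squamous keratin Krt5 was at 6.58, against -4.63 to -3.39 on the other 7 arrays, and S100a8 of neutrophils at 4.36, against -5.06 to 0.83. On the same array the goblet cell mucin Muc2 was at -0.46, against 3.35 to 6.31, and the chloride transporter of colonocytes, Slc26a3, at -4.49, against -0.39 to 2.89. Its median correlation with the other arrays was 0.913, where the other 7 reached 0.946 to 0.955. On female 1 of 14 days the small-intestinal genes Defa24, an antimicrobial peptide of Paneth cells, and Sis, the sucrase of the brush border, were at 3.19 and 1.45, and were at -1.15 and -2.31 or lower on the others. Replicate spots showed another difference. Over 300 probes that were each printed 10 times, the median SD was 0.20 on male 1 and 0.169 on female 1 of 14 days, which shared a slide, and 0.032 to 0.054 on the other 29 arrays of the series. Krt5, S100a8, Defa24, Sis and Hoxb7 were picked for this account after their values had been seen.

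Slides and scan days followed the groups. The arrays numbered 1 of both days were scanned on the same day but on different slides, and those numbered 2 on different days as well. Each slide held only 1 of the 2 days compared, so that slide and day of exposure cannot be told apart within these 8 arrays.

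**Figure D1:**
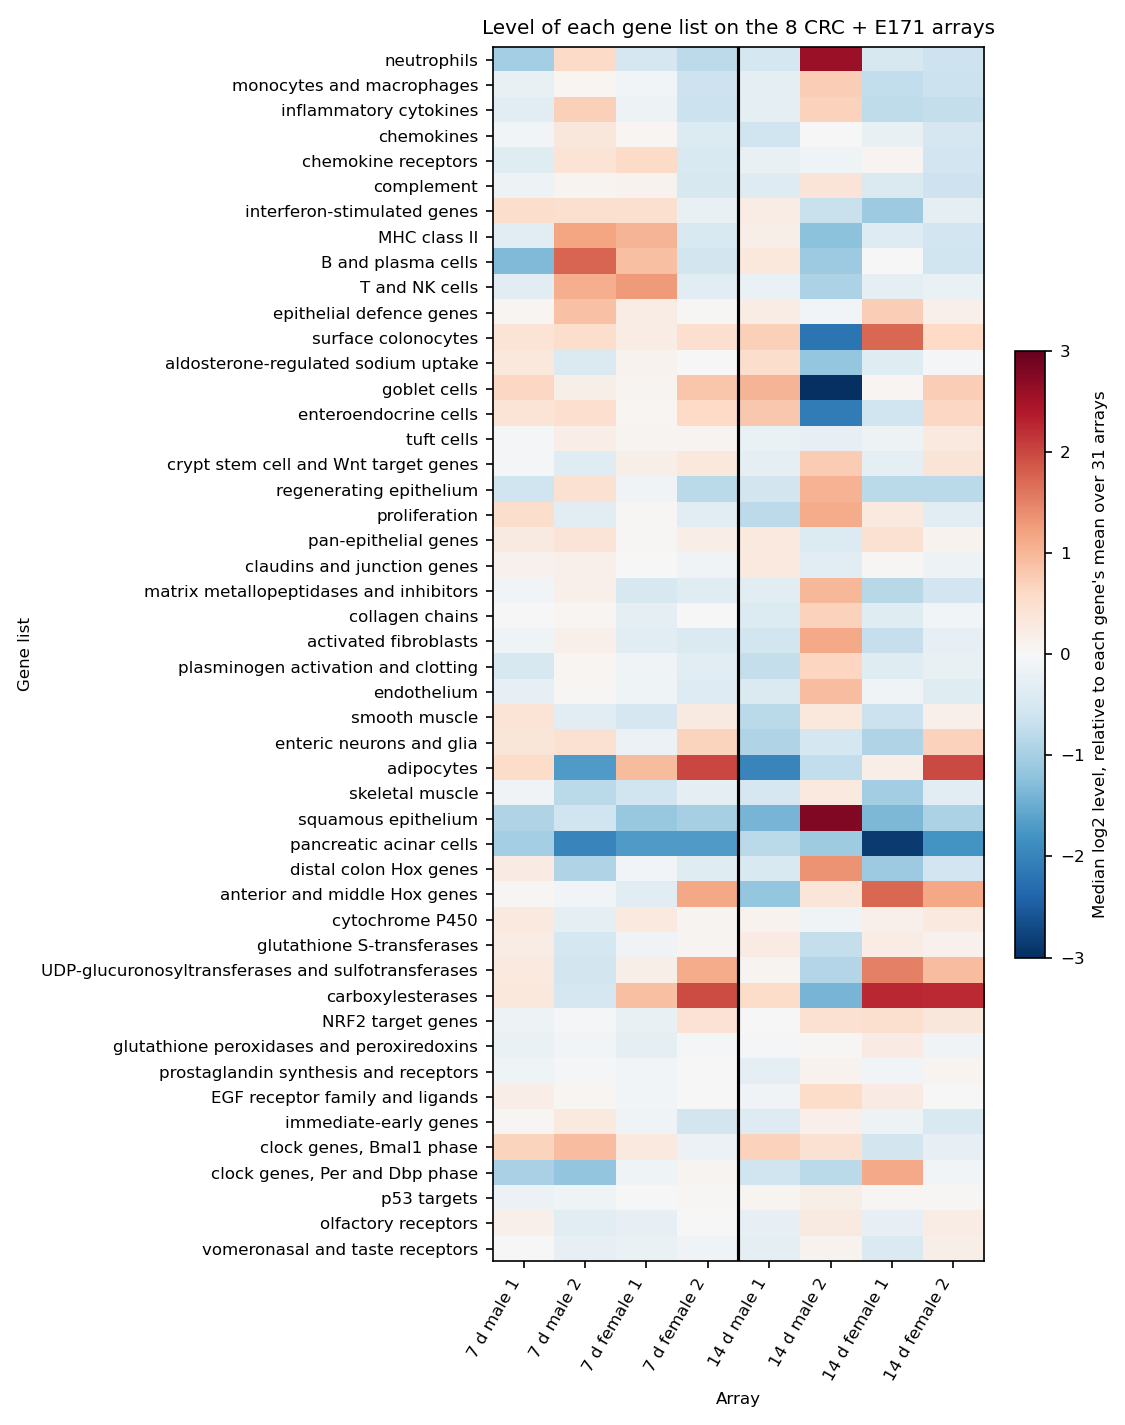
Level of each of 48 gene lists (rows) on each of the 8 CRC + E171 arrays (columns), as the median over the genes of a list of the log2 level minus that gene's mean over all 31 arrays. Male 2 of 14 days had the highest value for neutrophils (2.60) and squamous epithelium and the lowest for goblet cells and surface colonocytes, and both arrays labelled female 2 had nearly the same column.

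No gene passed an adjusted p of 0.05 between 14 and 7 days among the 19837 genes tested with limma, after adjustment by the Benjamini-Hochberg method. The smallest adjusted p was 0.9998, and 698 genes had an unadjusted p under 0.05. Under the second rule, a linear fold change of at least 1.5 together with an unadjusted p under 0.05, 525 genes (2.65% of those tested) were differentially expressed genes (DEG), of which 240 (1.21%) were up-regulated and 285 (1.44%) down-regulated after 14 days. All statements on DEG refer to this rule, which does not correct for the number of genes. With background corrected by normexp, the DEG were 176 up and 137 down, and with scan day as a fixed block 190 up and 473 down. Over all genes tested the median log2 fold change was 0.01, the median size of a fold change was 0.187 and the median standard error was 0.306. For a typical gene, the difference between the days was thus smaller than its error.

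The number of DEG depended on single arrays. It was 293 without male 2 of 7 days, 848 without female 2 of 7 days and 1027 without male 1 of 14 days, and between 405 and 765 when any other of the 8 was left out. Without both arrays labelled female 2 it was 854, of which 567 were down-regulated. The arrays of scan day 1 were 2 per day, and those of 14 days were male 1 and female 1, with the noisier replicate spots (median SD 0.20 and 0.169). Within scan day 1 the number of DEG was 1179, of which 838 were down-regulated. The direction was therefore not balanced the same way in each subset: up-regulated genes were in the majority without male 1 of 7 days (311 of 514), without male 1 of 14 days (576 of 1027) and without female 1 of 14 days (307 of 405). At the adjusted p, single genes passed in some of these subsets. Plppr4, which codes for a phospholipid phosphatase-related membrane protein of neurons, was lower by 2.17 log2 units without female 2 of 14 days (limma, adjusted p = 0.0181). The transcript 4931414P19Rik was lower by 1.72 without male 2 of 14 days (limma, adjusted p = 0.0245). Both were named after their values had been seen, although Plppr4 was also among the largest decreases given further on.

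**Figure D2:**
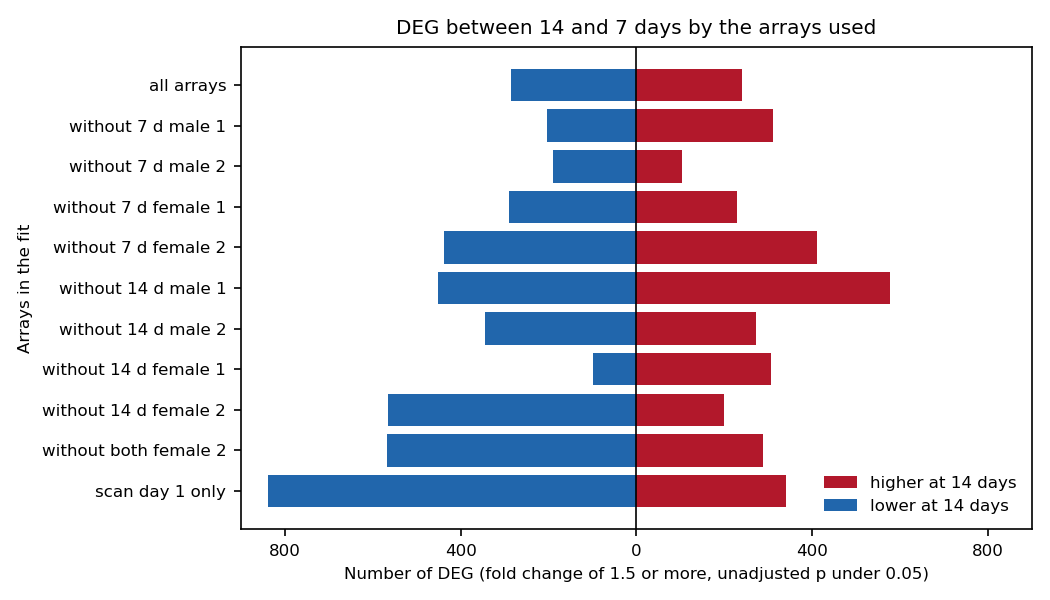
Number of DEG (bars, higher after 14 days to the right and lower to the left) with all arrays and with the arrays named on the vertical axis left out. All arrays gave 240 and 285, and leaving out single arrays moved the total between 293 and 1027.

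In 268 genes (1.35% of those tested) the 4 arrays of 14 days did not overlap with the 4 of 7 days, 149 of them higher and 119 lower after 14 days. Of these, 82 were also DEG. Many DEG were dim. Of the 525, 298 were well above background on at least 3 arrays of each day, and 48 were well above background on no array of one of the days. In 338 of the 525 the CRC arrays had the opposite sign between the same days. The same share over all genes tested was not counted, so that this number cannot be read as a trait of the DEG.

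Of the 48 gene lists that do not concern sex, 3 had all their members on the same side of 0, and these were interferon-stimulated genes, T and NK cells and MHC class II. They held a single DEG, beside 1.44% of all genes that were down-regulated DEG. All 34 interferon-stimulated genes tested were lower after 14 days than after 7 days, with log2 fold changes between -1.58 and -0.33 and a median of -0.86, beside 0.01 over all genes. None of the 34 was a DEG. In the CRC arrays the median of the same list was -0.30. The list as a whole was at 0.54, 0.47, 0.47 and -0.23 after 7 days and at 0.21, -0.68, -1.08 and -0.28 after 14 days, relative to the mean over all arrays. Female 2 of 7 days was thus below the other arrays of its day, and male 1 of 14 days above the others of its own. The median stayed between -1.06 and -0.62 when each of the 8 arrays was left out in turn, was -1.14 without both arrays labelled female 2 and -1.03 within scan day 1. It was -0.79 in males and -0.82 in females.

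Oas1a and Psmb8 had the highest mean signal among the interferon-stimulated genes and were the ones to be named for that. Oas1a, which makes the 2-5A signal that starts RNA decay, was at 5.22, 5.32, 4.92 and 4.54 after 7 days and at 5.67, 2.97, 4.80 and 4.50 after 14 days. Psmb8, a subunit of the immunoproteasome, was at 3.78, 4.11, 4.20 and 3.28 after 7 days and at 3.96, 2.40, 2.80 and 3.0 after 14 days. The arrays of both days overlapped for each of them, and the fold changes were -0.52 ± 0.52 (SE) and -0.81 ± 0.47 (SE). Only Gbp5, a guanylate-binding GTPase, Iigp1, an immunity-related GTPase, and Ddx58, the RNA sensor RIG-I, had no overlap between the days, beside 0.6% of all genes that were lower without overlap. They were at -0.44 ± 0.32, -1.10 ± 0.79 and -0.41 ± 0.37 (SE), and were named because of it.

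The promoters of these genes are known for the interferon-stimulated response element, through which interferons act. Its core, written GAAANNGAAA and searched on both strands in the 250 bases before the start of each gene, was in 16 of the 27 list members with a promoter in the RefSeq table (GRCm38.p6), and in 978 of all 32851 promoters (2.98%). The median fold change was -0.83 in the 16 members that held it and -0.81 in the 11 that did not. The stretches around the match are shown for the 6 members with the largest decrease among those that held it, read 5′ to 3′ on the strand of the gene, with 1 match in capitals. The promoters of Oas1g, Ifit1 and Gbp3 held 2 matches and that of Isg15 held 3, and further ones may stand in lower case. A match in the form TTTCNNTTTC is the same core on the other strand. The stretches lie at chr12:26456548-26456587 (- strand), chr5:120777710-120777749 (-), chr5:120887614-120887646 (-), chr4:156200872-156200911 (-), chr19:34640770-34640809 (+) and chr3:142559984-142560023 (+), in the order given:
Rsad2: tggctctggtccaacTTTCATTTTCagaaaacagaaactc
Oas3: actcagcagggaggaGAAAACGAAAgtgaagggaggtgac
Oas1g: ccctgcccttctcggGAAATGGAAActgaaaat
Isg15: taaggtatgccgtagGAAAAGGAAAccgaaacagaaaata
Ifit1: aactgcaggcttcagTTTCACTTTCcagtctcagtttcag
Gbp3: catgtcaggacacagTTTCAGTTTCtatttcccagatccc

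The genes behind these stretches are antiviral effectors. Rsad2, which codes for viperin, had the largest decrease of the list. It was at -0.82, -0.92, -1.07 and -2.20 after 7 days and at -0.94, -3.22, -4.90 and -2.27 after 14 days (-1.58 ± 1.10, SE), so that male 1 of 14 days stayed within the range of 7 days. Oas3, a further 2-5A synthetase, was at -1.25 ± 1.06 (SE), and Isg15, a ubiquitin-like modifier, at -1.03 ± 0.82 (SE). Ifit1, which binds foreign RNA, was at -1.01 ± 0.90 (SE). For each of them the error was close to the size of the change, and none was a DEG.

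Genes of T and NK cells showed the same sign without exception. All 24 members tested were lower after 14 days, with a median of -0.81 and none a DEG, beside -0.34 in the CRC arrays. The list was at -0.35, 1.09, 1.29 and -0.34 after 7 days and at -0.20, -0.96, -0.26 and -0.19 after 14 days. It was thus high on male 2 and female 1 of 7 days only. Cd3d, a chain of the T cell receptor complex, was at -1.23, 1.38, 1.39 and -0.81 after 7 days and at -0.98, -1.18, -0.80 and -0.90 after 14 days. Its SD was 1.40 (n = 4) after 7 days and 0.16 (n = 4) after 14 days, and the fold change was -1.15 ± 0.93 (SE). The cytotoxic granzyme Gzma was at -0.15 ± 1.0 (SE). Left out in turn, the 8 arrays gave medians of the list between -1.03 and -0.50.

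MHC class II genes were likewise all lower, 11 of 11, with a median of -0.91 and 1 DEG, where the CRC median was 0.08. The list was at -0.32, 1.19, 1.01 and -0.45 after 7 days and at 0.19, -1.23, -0.385 and -0.57 after 14 days. It was thus high on male 2 and female 1 of 7 days only, and male 1 of 14 days lay above the other arrays of 7 days. The DEG was H2-Aa, the alpha chain of the I-A molecule, at 1.48, 1.59, 2.35 and -0.01 after 7 days and at 0.91, -0.53, -0.16 and 0.28 after 14 days. Its fold change was -1.23 ± 0.58 (SE), and the days overlapped through female 2 of 7 days. With normexp it was at -1.15 and no DEG. The invariant chain Cd74 was at -0.94 ± 0.57 (SE) and the transactivator of the class, Ciita, at -1.03 ± 0.61 (SE). The median of the list lay between -1.2 and -0.65 when each array was left out, and was -0.56 within scan day 1.

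B and plasma cell genes were lower in 17 of 18 members, with a median of -0.60 against 0.80 in the CRC arrays, and held no DEG. This median varied more with the arrays left out than those of the 3 lists above. It was -1.15 without male 1 and -0.03 without male 2 of 7 days, and 0.34 within scan day 1. Jchain, which joins IgA molecules, was at -0.57 ± 0.48 (SE), and the plasma cell regulator Xbp1 at -0.16 ± 0.18 (SE).

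**Figure D3:**
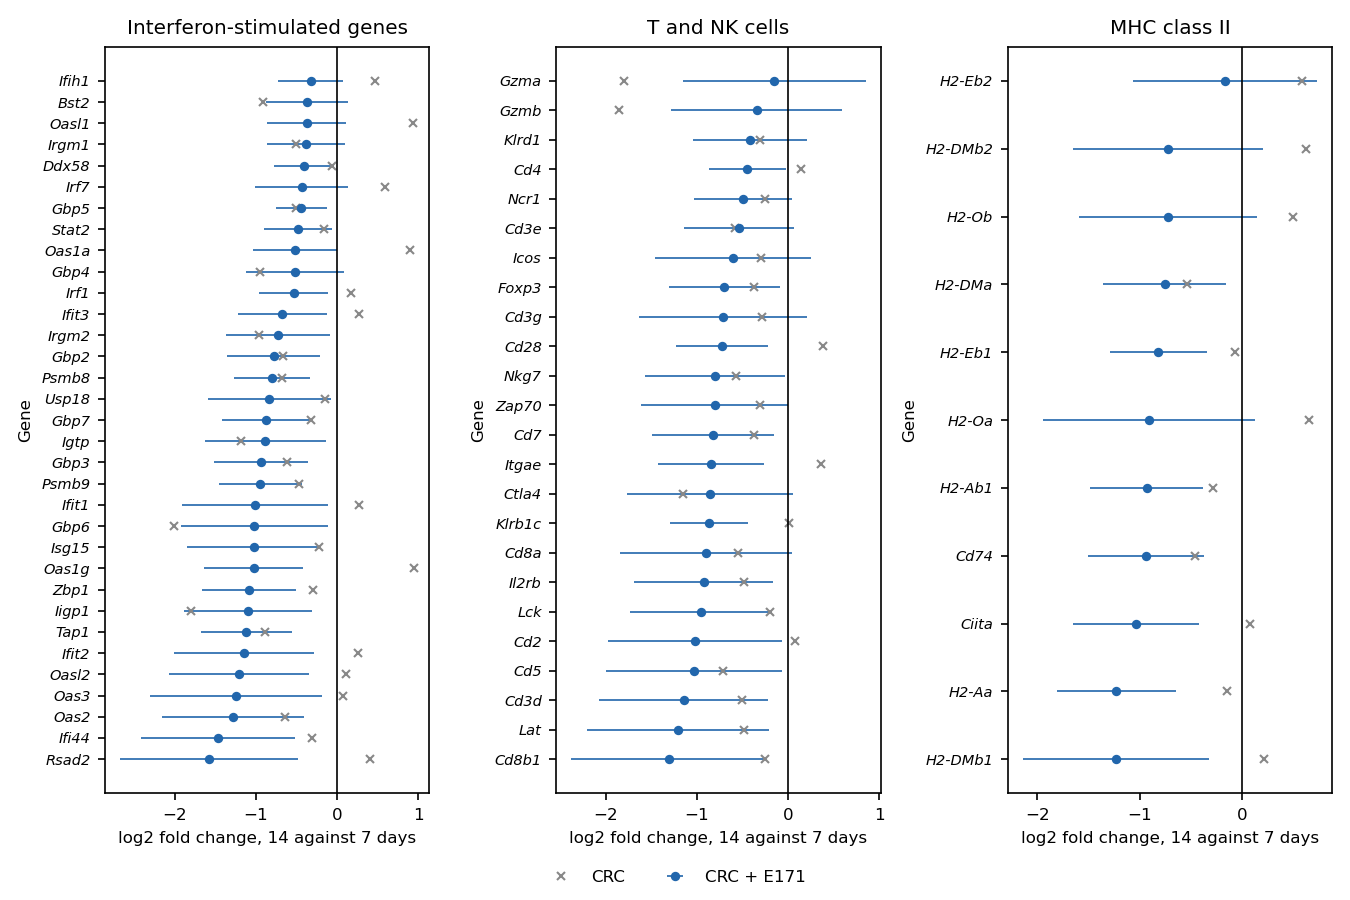
Log2 fold change of 14 against 7 days for interferon-stimulated, T and NK cell and MHC class II genes in the CRC + E171 arrays (points, bars of 1 SE) and in the CRC arrays (crosses). All points lie below 0, while the crosses lie on both sides.

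Among signals that guide lymphocytes, Ccl21a was the only DEG of 32 chemokines. The gene codes for the ligand of CCR7 that brings T cells and dendritic cells into lymphoid tissue. It was at 4.40, 5.06, 4.20 and 2.84 after 7 days and at 3.07, 3.43, 2.36 and 2.69 after 14 days, a fold change of -1.24 ± 0.43 (SE). Only female 2 of 7 days reached into the range of 14 days. The chemokines as a list had a median of -0.19 and the 20 chemokine receptors one of -0.16. Xcr1, the receptor of cross-presenting dendritic cells, was the only DEG of the receptors, at -5.97, -2.94, -4.79 and -5.76 after 7 days and -6.09, -8.06, -5.78 and -5.99 after 14 days. Its fold change was -1.61 ± 0.71 (SE), at a low level on all 8 arrays, and with normexp it was -0.69 and no DEG.

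The median of the neutrophil genes moved with male 2 of 14 days. It was 0.68 in 19 genes, 14 of which were higher, and -0.32 without that array. In the CRC arrays it was -1.55. The 2 genes named for their level did not follow that array. Ly6g, the defining surface marker of neutrophils, lacked a value on male 2 of 7 days and was at -0.86 ± 1.28 (SE). It was at 2.86, 2.62 and -3.91 on the other arrays of 7 days and at 2.44, 2.51, -2.42 and -3.87 after 14 days. It was thus low on the arrays on which Hoxb13 was low. The receptor Csf3r was at -0.11 ± 0.19 (SE), with male 2 the lowest array of 14 days. No neutrophil gene was a DEG, nor was any of the 21 monocyte and macrophage genes (median -0.04), the 21 inflammatory cytokines (-0.19) or the 26 complement genes (-0.09). Without male 2 of 14 days these 3 medians were -0.37, -0.49 and -0.35. Lyz2, the lysozyme of macrophages, was at -0.35 ± 0.34 (SE) and Ly6c2, a marker of inflammatory monocytes, at -0.75 ± 0.49 (SE). The cytokine Il18 was at -0.98 ± 0.64 (SE), the cytokine subunit Ebi3 at -0.19 ± 0.39 (SE), and the complement genes C3 and Serping1 at 0.02 ± 0.48 and -0.06 ± 0.30 (SE).

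The largest changes among genes whose arrays did not overlap were mostly of dim genes. By size, the 12 largest increases that were DEG ran from 1.69 to 0.87 log2 units. Sizes were ranked as measured, also where a gene was well above background on no array of the lower day. With normexp, which draws dim values together, 7 of the 12 were still DEG. Hopx, a homeodomain protein of stem and differentiating cells, was above the 75th percentile on all 8 arrays, at 1.35, 0.62, 1.63 and 1.58 after 7 days and at 1.89, 3.0, 2.37 and 1.79 after 14 days. Its fold change was 0.97 ± 0.40 (SE), and in the CRC arrays it was -0.47. All 4 arrays of 14 days lay above all 4 of 7 days, although male 1 and female 2 only by a small margin.

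Nxf2, an RNA export factor of the germ line, was at -3.87, -4.01, -3.80 and -3.83 after 7 days and at -2.85, -3.17, -3.04 and -2.52 after 14 days, a fold change of 0.98 ± 0.32 (SE). Its groups lay apart from each other, with an SD of 0.095 and 0.28 (n = 4 each). Pitpnm3, a membrane-associated phosphatidylinositol transfer protein, was at -2.19, -2.75, -2.81 and -2.38 after 7 days and at -2.15, -1.76, -0.62 and -2.14 after 14 days. Its fold change was 0.87 ± 0.40 (SE), with a gap between the groups only at the second decimal.

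Further increases were those of genes usually found in other tissues. Pou1f1, a transcription factor of the pituitary, was at -6.17, -7.75, -6.29 and -6.66 after 7 days and at -5.50, -5.65, -5.49 and -3.50 after 14 days, a fold change of 1.69 ± 0.64 (SE). It was well above background on 1 array of 7 days and 4 of 14 days. The organic anion transporter Slc22a19 was at 1.52 ± 0.64 (SE), the transporter Abcc12 at 1.3 ± 0.49 (SE) and the trace amine receptor Taar5 at 1.27 ± 0.59 (SE). R3hdml was at 1.11 ± 0.52 (SE), and at 0.44 without male 2 of 14 days, where it was at -1.86. The sperm gene Spata9, the channel-like Tmbim7 and the hair keratin-associated Krtap16-1 were between 0.96 and 1.05. With normexp Pou1f1 was at 0.69 and Slc22a19 at 0.61, still DEG, whereas Abcc12 (0.40), Taar5 (0.63), Spata9 (0.49) and Tmbim7 (0.57) were not. Izumo2, of the family of the sperm-egg fusion protein, was not well above background on any array of 7 days, and no fold change could be bounded for it.

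**Figure D4:**
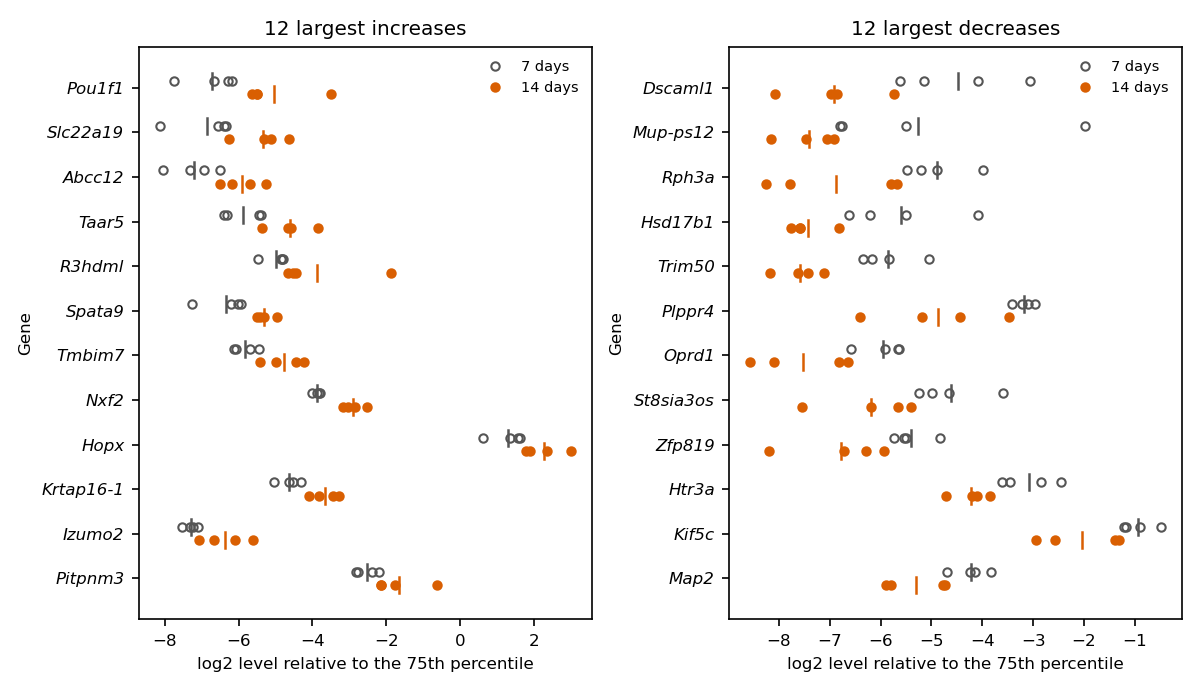
Log2 level, relative to the 75th percentile, of the 12 largest increases and 12 largest decreases on the 4 arrays of 7 days (open) and of 14 days (filled), with bars at the group means. Hopx lies above 0 on all 8 arrays, and most other genes lie below -2.

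The 12 largest decreases that were DEG ran from -2.44 to -1.07 log2 units, and only 3 of them, Dscaml1, Plppr4 and Kif5c, were still DEG with normexp. Plppr4 was at -2.96, -3.10, -3.22 and -3.41 after 7 days and at -5.18, -4.44, -6.41 and -3.47 after 14 days, a fold change of -1.70 ± 0.38 (SE). Female 2 of 14 days lay just below the lowest array of 7 days, and the other 3 were clearly lower. Htr3a, a subunit of the serotonin-gated ion channel, was at -2.84, -2.45, -3.45 and -3.62 after 7 days and at -4.21, -4.11, -4.71 and -3.85 after 14 days (-1.13 ± 0.46, SE). Kif5c, a kinesin motor of axons, was at -0.89, -0.48, -1.17 and -1.22 after 7 days and at -1.31, -2.56, -2.94 and -1.39 after 14 days (-1.11 ± 0.37, SE). Map2, a microtubule-associated protein of dendrites, was at -4.15, -4.24, -3.83 and -4.70 after 7 days and at -4.73, -5.79, -5.89 and -4.77 after 14 days (-1.07 ± 0.39, SE). These 4 genes were well above background on 3 or all 4 arrays of 14 days, and in each of them female 2 of 14 days was among the highest of its day.

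With normexp the fold changes were -1.03 for Plppr4, -0.70 for Htr3a, -0.86 for Kif5c and -0.46 for Map2. The CRC arrays gave -0.05 for Plppr4, -0.79 for Htr3a, -0.04 for Kif5c and 0.04 for Map2 between the same days. Dscaml1, a cell adhesion molecule of neurons, had the largest decrease, at -5.61, -3.06, -4.08 and -5.14 after 7 days and -6.97, -8.08, -6.87 and -5.73 after 14 days (-2.44 ± 0.82, SE). It was well above background on only 1 array of 14 days, and at -1.07 with normexp. Rph3a, rabphilin of synaptic vesicles, was at -1.98 ± 0.73 (SE), and at -0.62 with normexp. The opioid receptor gene Oprd1 was not well above background on any array of 14 days and was at least 1.31-fold higher after 7 days.

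The same bound was at least 1.66-fold for Hsd17b1, an enzyme of estradiol synthesis, at least 1.4-fold for the ubiquitin ligase gene Trim50 and at least 1.89-fold for the zinc finger gene Zfp819. The bounds were set against the lowest signal that was well above background on each array of 14 days. They did not hold with normexp, where the log2 fold change was -0.345 for Oprd1, -0.54 for Hsd17b1, -0.365 for Trim50 and -0.363 for Zfp819, each smaller than its bound. Mup-ps12, a pseudogene of the major urinary proteins, was at -2.14 ± 0.92 (SE) and at -1.05 without female 1 of 7 days, where it was at -1.97 against -6.80 to -5.51 on the other arrays of that day. Since the probe of a pseudogene may also bind its gene family, this value is uncertain. The antisense transcript St8sia3os was at -1.57 ± 0.52 (SE), and at -0.57 with normexp.

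Genes of enteric neurons and glia, which form the nerve plexuses of the gut wall, were lower in 14 of 16 members, with 4 DEG, all down-regulated, and a median of -0.61. Of all genes 1.44% were down-regulated DEG. Prph, the neuronal filament peripherin, was at -1.17, -0.60, -1.79 and -0.16 after 7 days and at -2.74, -2.83, -3.31 and -0.42 after 14 days (-1.40 ± 0.60, SE). Of the arrays of 14 days 3 were low and female 2 was not. Gfap of glia, at -1.28 ± 0.56 (SE), and the RNA-binding protein gene Elavl4, at -0.94 ± 0.42 (SE), were also DEG. Vip, a transmitter of these neurons, was at -0.92 ± 0.58 (SE). Other genes of the same cells gave values near 0: Stmn2 was at 0.02 ± 0.49 (SE) and Gfra3 at 0.04 ± 0.27 (SE). The median of the list was -0.93 to -0.42 over the arrays left out, -0.84 within scan day 1, -0.92 in males, -0.30 in females and -0.30 in the CRC arrays. The smooth muscle list, a gauge of how much gut wall a sample held, had a median of -0.19 in 15 genes with no DEG, and -0.68 within scan day 1, with Tagln at -0.23 ± 0.33 (SE) and Actg2 at -0.18 ± 0.42 (SE). Its part in the values of the neuronal genes was not tested.

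Enteroendocrine genes held more DEG than any other list of fewer than 50 genes, 1 up and 5 down of 20 beside 2.65% of all genes, with a median of -0.89, and 0.57 in the CRC arrays. Their values turned on the arrays that stood apart. Insl5, a hormone of the distal colon, was at 4.32, 4.65, 4.08 and -1.45 after 7 days and at 5.28, -2.67, -3.99 and -1.62 after 14 days (-3.65 ± 1.42, SE). Pyy, the peptide YY of L cells, was at 4.78, 4.81, 4.15 and 1.87 after 7 days and at 5.28, -0.25, 1.43 and 1.36 after 14 days (-1.95 ± 0.81, SE). Both were high on the 3 arrays of 7 days that did not stand apart and on male 1 of 14 days, and lower on the 4 that did. Without those 4 arrays, which leaves 1 array for 14 days, the sign turned, to 0.93 for Insl5 and 0.70 for Pyy, each smaller than its error. The array left, male 1, was the one with the highest SD between replicate spots. Nts, which codes for neurotensin of the lower small intestine, went the other way, at -8.41, -6.04, -6.19 and 2.77 after 7 days and at -5.15, -3.25, 2.52 and 2.67 after 14 days (3.67 ± 1.68, SE). It was high on the same 3 arrays on which Hoxb13 was low, and with normexp it was at 2.42 and no DEG. The remaining DEG were Tph1, which makes serotonin, at -1.38 ± 0.66 (SE), the granin Scg2 at -1.08 ± 0.50 (SE) and the transcription factor Rfx6 at -1.04 ± 0.41 (SE). The general markers Chga and Chgb, which were not DEG, were at -1.08 ± 0.76 and -1.07 ± 0.73 (SE), and the list median was -0.18 without male 2 of 14 days.

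Goblet cell genes had a median of -0.88 in 20 members, 17 of them lower, but 0.14 without male 2 of 14 days. Their only DEG was up-regulated. St6galnac1, which adds sialic acid to mucins, was at -0.49, -1.37, -0.79 and -0.86 after 7 days and at -0.38, -0.37, -0.40 and 0.35 after 14 days, with no overlap (0.68 ± 0.30, SE). With normexp it was at 0.50 and no DEG. Muc2, the main mucin, was at 4.04, 4.50, 3.35 and 6.31 after 7 days and at 4.43, -0.46, 3.88 and 5.66 after 14 days (-1.17 ± 1.06, SE). Apart from male 2, its arrays of 14 days lay within the range of 7 days.

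The 29 genes of surface colonocytes held no DEG and had a median of -0.11, with -1.27 in males and 0.65 in females. Without male 2 of 14 days it was 0.47. Aqp8, a water channel, was at -1.14 ± 1.67 (SE) with that array and at 0.34 without it. The hormone Guca2a was at -0.42 ± 1.08 (SE) and the keratin Krt20 at -0.15 ± 0.52 (SE). Of 14 pan-epithelial genes none was a DEG (median -0.12), with Krt8 at -0.12 ± 0.47 (SE) and Krt19 at -0.12 ± 0.40 (SE). Genes of aldosterone-regulated sodium uptake, 11 in all, had a median of -0.36 and 0.27 without male 2 of 14 days, with the sodium pump subunit Atp1b1 at -0.55 ± 0.44 (SE).

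In tight junctions the DEG went both ways, 1 up and 1 down of 19 beside 1.21% and 1.44% of all genes, with a median of 0.01. Cldn4, a claudin of the surface epithelium that is also in the list of 25 epithelial defence genes, as their only DEG, was at -1.42, -1.36, -1.91 and -1.43 after 7 days and at -1.17, 0.45, -0.64 and -1.29 after 14 days, with no overlap (0.87 ± 0.37, SE). Cldn8, a claudin that seals the distal colon against sodium, was at 2.97, 3.23, 2.14 and 0.91 after 7 days and at 2.77, -1.85, -2.70 and 0.81 after 14 days (-2.56 ± 0.92, SE). It was low on male 2 and female 1 of 14 days only. The list of epithelial defence genes had a median of 0.07.

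Of 22 crypt stem cell and Wnt target genes, 17 were higher after 14 days, with a median of 0.21 and 1 DEG, up-regulated as were 1.21% of all genes. Sp5, a direct target of Wnt signalling, was at -7.11, -5.93, -6.63 and -3.14 after 7 days and at -5.33, -1.27, -3.80 and -3.03 after 14 days (2.34 ± 0.88, SE). It was high on female 2 of both days and highest on male 2 of 14 days. The median of the list was -0.01 without that array. Chat, which makes acetylcholine in tuft cells and in neurons, was the only DEG of 14 tuft cell genes (median -0.18), at -4.53, -4.80, -5.31 and -4.66 after 7 days and -5.78, -5.22, -5.98 and -4.78 after 14 days (-0.61 ± 0.23, SE), and at -0.19 with normexp. Proliferation genes, 28 in all, had a median of 0.13 and -0.20 without male 2 of 14 days, with Pcna at 0.33 ± 0.26 (SE) and Mki67 at 0.06 ± 0.33 (SE). Regenerating epithelium had a median of 0.15 in 20 genes and -0.23 without the same array, with Clu at -0.61 ± 0.66 (SE) and Ly6a at -0.99 ± 0.66 (SE). Neither list held a DEG.

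NRF2 target genes, which code for enzymes of glutathione synthesis and of the defence against oxidants, were higher in 16 of 17 members. Their median was small, 0.23, and was -0.18 in the CRC arrays. It stayed between 0.14 and 0.35 when each array was left out. The list was at -0.16, -0.03, -0.215 and 0.43 after 7 days and at -0.01, 0.46, 0.48 and 0.35 after 14 days, relative to the mean over all arrays. It was thus high on the 4 arrays that stood apart, and male 1 of 14 days was close to the other arrays of 7 days. Leaving out 1 array at a time cannot show this. There were 2 DEG, both up-regulated, as were 1.21% of all genes. Gclm, the modifier subunit of glutamate-cysteine ligase, was at 2.20, 2.20, 2.25 and 3.19 after 7 days and at 2.71, 3.02, 3.72 and 3.08 after 14 days (0.67 ± 0.22, SE). Female 2 of 7 days alone reached into the range of 14 days, and with normexp the gene was at 0.54 and no DEG. Nqo1, a quinone reductase, was at -0.84, -1.98, -1.33 and 0.40 after 7 days and at -0.69, -0.18, 1.69 and 0.46 after 14 days (1.26 ± 0.46, SE), and was likewise high on female 2 of 7 days. The catalytic subunit of the same ligase, Gclc, was at 0.59 ± 0.30 (SE), and the heme oxygenase Hmox1 at 0.66 ± 0.56 (SE), of which 1.75 on male 2 of 14 days was the highest value. Slc7a11, the cystine transporter, was the only member lower after 14 days, at -0.53 ± 0.95 (SE).

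NRF2 is known to bind the antioxidant response element. Its core, written TGACNNNGC and searched on both strands, was in 3 of the 13 members with a promoter in the table, namely Gclm, Txnrd1 and G6pdx, and in 3338 of all 32851 promoters (10.2%). The median fold change was 0.29 with it and 0.18 in the 10 members without it. The stretch of Gclm is shown because Gclm was the DEG that held the core. It lies at chr3:122245408-122245446 (+ strand, GRCm38.p6, RefSeq), with the match, here in the form GCNNNGTCA on the other strand, in capitals:
Gclm: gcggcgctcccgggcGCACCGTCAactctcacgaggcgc

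Further lists held genes that handle foreign compounds. Cytochrome P450 genes held 2 DEG up and 1 down of 74, beside 1.21% and 1.44% of all genes, with a median of 0.02. Cyp4a29 was well above background on no array of 7 days and 2 of 14 days, and at least 1.23-fold higher after 14 days. The fatty acid hydroxylase gene Cyp4a14 was at 1.09 ± 0.44 (SE), and at -0.13 within scan day 1. Cyp4x1 was at -0.82 ± 0.38 (SE), and at -0.43 and no DEG with normexp. Glutathione S-transferases (20 genes, median 0.08), UDP-glucuronosyltransferases and sulfotransferases (19 genes, 0.05), carboxylesterases (14 genes, -0.01) and glutathione peroxidases and peroxiredoxins (17 genes, 0.16) held no DEG. Without male 2 of 14 days the median was 0.80 for UDP-glucuronosyltransferases and sulfotransferases, 0.28 for glutathione S-transferases and 1.11 for carboxylesterases. On that array Ces2c was at -0.68 and Ces2e at -0.86, against 3.12 to 6.0 for both on the other arrays. Gstp2 was at 0.09 ± 0.24 (SE), Gsto1 at 0.50 ± 0.38 (SE), Sult1a1 at -0.27 ± 0.89 (SE), Ugt2b34 at -0.28 ± 1.2 (SE), Gpx2 at 0.26 ± 0.35 (SE) and Prdx6 at -0.04 ± 0.51 (SE).

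Lists of matrix, fibroblasts and vessels followed. Col24a1, a fibrillar collagen, was the only DEG among 40 collagen chains (median 0.06), at 0.75 ± 0.34 (SE). Matrix metallopeptidases and inhibitors (19 genes, median 0.02), activated fibroblasts (23 genes, 0.13), plasminogen activation and clotting (16 genes, 0.23) and endothelium (14 genes, 0.27) held none. All 5 medians were negative without male 2 of 14 days, from -0.35 to -0.11. Timp2 and Mmp2 were at 0.15 ± 0.29 and 0.23 ± 0.44 (SE), the proteoglycans Dcn and Lum at 0.27 ± 0.26 and 0.30 ± 0.41 (SE), F3 and Procr at 0.04 ± 0.35 and 0.43 ± 0.37 (SE), and Plvap and Emcn of vessels at 0.28 ± 0.41 and 0.57 ± 0.33 (SE).

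Markers of neighbouring tissues were counted as well, and held no DEG. Squamous epithelium had a median of 0.93 in 15 genes and -0.20 without male 2 of 14 days, with Krt6a at 6.61 on that array and -1.91 to 0.18 on the others. Krt10 was at 0.31 ± 1.34 (SE). Adipocytes had a median of -0.34 in 11 genes. It was -0.92 without male 2 of 7 days, 0.19 without male 1 of 14 days and -1.18 within scan day 1. Adipoq was at 2.91 and 2.77 on the arrays labelled female 2, Fabp4 at -0.25 ± 0.76 (SE) and Cidec at -1.18 ± 1.44 (SE). Skeletal muscle (14 genes, 0.11; Acta1 -0.26 ± 0.99, Tnni2 0.36 ± 0.98, SE) and pancreatic acinar cells (19 genes, -0.22; Sycn -1.83 ± 1.32, Cela1 -1.13 ± 1.11, SE) varied between arrays more than between days. The 11 distal Hox genes had a median of -0.05, with Hoxa10 at -0.12 ± 0.36 (SE), and the 17 anterior and middle ones 0.29, with Hoxa7 at -0.11 ± 0.30 (SE).

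Of signalling genes, the 20 prostaglandin genes (median 0.01), the 13 genes of the EGF receptor family (-0.01) and the 16 immediate-early genes (-0.25) held no DEG. Ptges3 was at 0.32 ± 0.20 (SE), Pla2g2a at 1.10 ± 1.22 (SE), Erbb2 at 0.13 ± 0.32 (SE), Erbb3 at -0.14 ± 0.39 (SE), Jun at 0.13 ± 0.23 (SE) and Fos at -0.79 ± 0.49 (SE). Sesn2, a stress-induced inhibitor of mTORC1, was the only DEG of 13 p53 targets (median 0.13), at 0.51, 0.69, 0.66 and 1.06 after 7 days and 0.83, 1.23, 2.08 and 1.12 after 14 days (0.59 ± 0.27, SE), and was at 0.35 and no DEG with normexp. Clock genes, which change with the hour of the day, had a median of 0.63 in 11 genes of the Per and Dbp phase, which was 0.25 without female 1 of 14 days, 0.31 with normexp and 0.35 in the authors' values, and of -0.19 in 5 of the opposite phase, with no DEG. Dbp was at 4.68 on female 1 of 14 days and at 1.31 to 2.76 on the other arrays (0.80 ± 1.06, SE). Cry2 was at 0.31 ± 0.35 (SE), Nfil3 at -0.25 ± 0.87 (SE) and Clock at -0.14 ± 0.24 (SE).

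Receptor genes of the nose were measured near background. Of 411 olfactory receptor genes, 17 were DEG up and 10 down, with a median of 0.06, and of 96 vomeronasal and taste receptors 7 up and 2 down, with a median of 0.04, beside 1.21% up and 1.44% down of all genes. Olfr691 was well above background on no array of 7 days and at least 1.48-fold higher after 14 days, and Olfr1303 on no array of 14 days and at least 1.71-fold higher after 7 days. Olfr1217 was at 1.69 ± 0.69 (SE) and Olfr686 at -1.5 ± 0.67 (SE), each well above background on 2 arrays of 14 days. Vmn2r112 was at 1.46 ± 0.55 (SE), Vmn1r191 at 1.42 ± 0.61 (SE), Vmn2r27 at -1.59 ± 0.76 (SE) and Vmn2r20 at -1.14 ± 0.47 (SE). Vmn1r191 was at -0.11 within scan day 1. With normexp, only Olfr1303 (-0.82) and Vmn1r191 (0.85) of these 8 receptors were still DEG, and Olfr691, at 0.54, was below its bound. Since members of these families are close in sequence, their probes may share targets.

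The change between the days was then set against that without E171, to see whether it was particular to exposed mice. The CRC arrays, which share no array with the comparison above, gave 1469 DEG (7.41% of those tested) between the same days, 842 up and 627 down, and none at an adjusted p of 0.05. The difference of the changes gave 1617 genes (8.15%) past the fold change and unadjusted p, 799 higher and 818 lower with E171. This count rested on the CRC arrays of 7 days, and was 737 without male 1, 2807 without female 1 and 2478 without female 2 of them. None of them passed the adjusted p, of which the smallest was 0.523 (limma, 1792 genes with an unadjusted p under 0.05). Of the 525 DEG, 262 were also called in the difference. The difference holds the same change with E171 by which the 525 were picked, so that part of this overlap was fixed beforehand.

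Read against that 8.15%, 27 of the 48 lists held a larger share of called genes, and those with 3 or more called genes are given here. Of 20 goblet cell genes 14 were called lower with E171, of 20 enteroendocrine genes 9, of 29 surface colonocyte genes 8, of 19 tight junction genes 4, of 11 sodium uptake genes 3 and of 32 chemokines 3, with none higher. Of 17 NRF2 targets 5 were called higher, as were 4 of 19 neutrophil and 4 of 14 skeletal muscle genes, with none lower. Calls went both ways in the 74 P450 genes (4 higher, 13 lower), the 25 epithelial defence genes (2 and 5), the 20 chemokine receptors (3 and 2), the 17 anterior and middle Hox genes (2 and 3), the 14 tuft cell genes (2 and 2), the 21 monocyte and macrophage genes (3 and 1) and the 20 prostaglandin genes (2 and 1). The same held for the 96 vomeronasal and taste receptors (12 and 4) and the 411 olfactory receptors (36 and 17). Goblet cell genes had a median of -0.88 with E171 and of 1.99 without, and surface colonocytes of -0.11 and 1.5. As given above, male 2 of 14 days was the array lowest in these genes, and without it the medians with E171 were 0.14 and 0.47. Markers of other tissues moved in the CRC arrays at the same time. There the median was -4.72 for pancreatic acinar cells, -2.28 for squamous epithelium and -2.11 for skeletal muscle, of which 9 of 14 genes were DEG, while all 14 pan-epithelial genes were up-regulated DEG. The part of these shifts in the difference was not tested. None of the T and NK cell, MHC class II and B and plasma cell genes was called in the difference, and 1 of the 34 interferon-stimulated genes was.

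**Figure D5:**
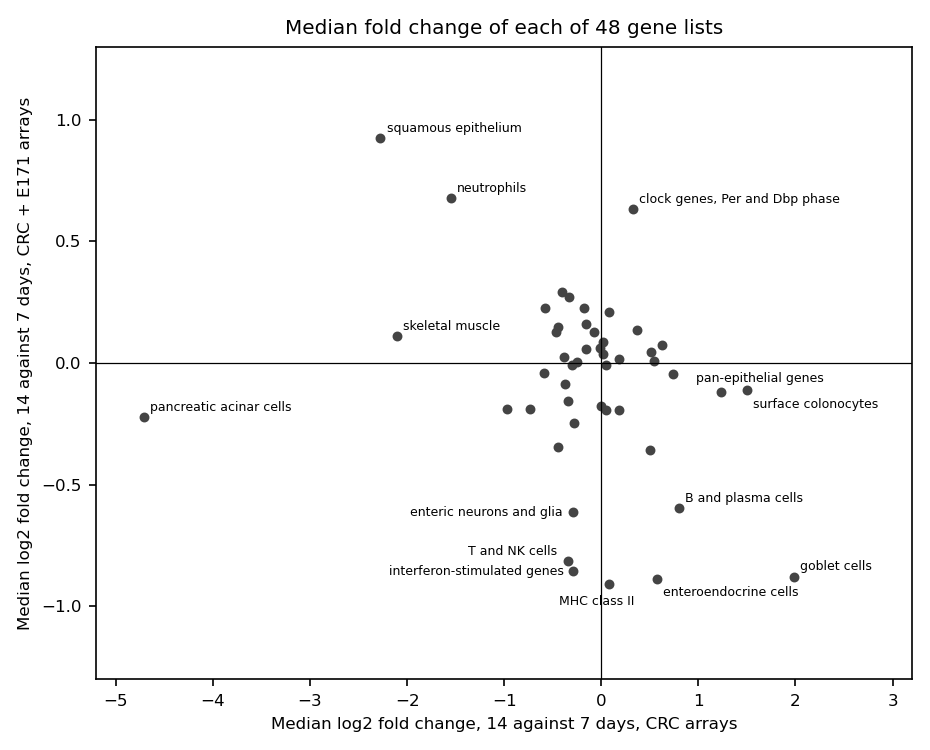
Median log2 fold change of 14 against 7 days of each of 48 gene lists, in the CRC arrays (horizontal) and in the CRC + E171 arrays (vertical, at a larger scale). Goblet cells lie at 1.99 and -0.88 and squamous epithelium at -2.28 and 0.93, while most lists lie within 0.3 of 0 on the vertical axis.

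Among single genes, the 5 largest differences in each direction stayed between 3.64 and 9.28 in size when any of the 16 arrays was left out. Of these 10 genes, 4 were still called without male 2 of 14 days, namely Defb1, Csf3, Sval1 and Clca1, and Sval1 was not without female 2 of 14 days (-4.97). With normexp Mptx1 (-4.63) and Mptx2 (-4.69) were not called, and Defb1 was at 4.06 instead of 6.36. None of the 10 was a DEG between the days with E171, where their standard errors lay between 1.34 and 2.32. Mptx1, a pentraxin of intestinal epithelium, was at 1.0, 2.31, 3.72 and 2.37 after 7 days and at 2.38, -7.53, 0.19 and 2.28 after 14 days. Its fold change was -3.02 with E171 and 3.87 without. Mptx2 (-3.03 and 3.79), Sval1 (-2.67 and 3.78), the oxidase gene Hao2 (-1.38 and 4.57) and Clca1 of goblet cells (-1.57 and 3.89) also gave opposite signs. Without male 2 of 14 days the change with E171 was 0.60 for Hao2 and -0.26 for Clca1. The signs were the other way round for the defensin gene Defb1 (1.78 and -4.58), Psca (2.65 and -3.23), the acute phase gene Saa3 (2.05 and -3.67) and Krt6a (2.37 and -3.32). Psca was at 3.39 on male 2 of 14 days and between -6.46 and -5.11 on the other arrays. Without that array the change was 0.41 for Psca and 0.42 for Krt6a. Csf3, the growth factor of neutrophils, was well above background on 1 of the 8 arrays only, so that no fold change with E171 could be bounded for it and its place among the 5 is uncertain.

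Sex was examined last, with 2 arrays per sex and day. In males 678 genes (3.42%) were DEG, 319 up and 359 down, and in females 414 (2.09%), 249 up and 165 down. Of these, 19 were DEG of the same sign in both sexes and 13 of opposite sign. The change differed between males and females in 426 genes (2.15%) by fold change and unadjusted p, and in none at an adjusted p of 0.05 (limma, smallest adjusted p = 0.0969, with 430 genes at an unadjusted p under 0.05).

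At the adjusted p, 1 gene passed in males and none in females (limma, 461 genes in females with an unadjusted p under 0.05). The gene was Ces2b, a carboxylesterase of the gut, named after its value had been seen. It was at 2.98 and 2.60 on the males of 7 days and at -1.24 on male 2 of 14 days, a fold change of -4.03 (limma, adjusted p = 0.0143). This single gene was 0.00504% of those tested. Its spot on male 1 of 14 days had been marked as an outlier, so that the males of 14 days were represented by 1 array, taken by the model to vary like the other groups. That array was the one low in the carboxylesterases named above. The sign in males and females differed in several lists, most widely for surface colonocytes (-1.27 and 0.65), squamous epithelium (1.47 and -0.23), anterior and middle Hox genes (-0.33 and 1.23), distal Hox genes (1.15 and -0.36) and carboxylesterases (-0.39 and 1.05). The medians of surface colonocytes, squamous epithelium and carboxylesterases moved with male 2 of 14 days, as given above. That of the anterior and middle Hox genes was -0.06 without female 1 and 1.03 without male 1 of 14 days, and that of the distal ones -0.40 without male 2 and 0.34 without female 2 of 14 days.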

How the data were processed

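Total RNA of distal colon was hybridised to 31 one-colour arrays. The authors extracted each spot with Feature Extraction 10.7.3.1 and deposited its processed signal, an intensity that is background-subtracted and detrended but not normalized between arrays. The authors also deposited a log2 matrix of 42568 probes (19701 genes here), filtered, imputed and normalized between arrays by a method not named in the sources used here. Per the labels' processing notes, limma was used. Each of the 31 columns ranked its probes most like its own array (rank correlation 0.994 or more), with column medians of 9.43 to 9.67, so that scale and direction were as in the scanner values.

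Here the log2 of the processed intensity minus that of the array's 75th percentile was used, without control spots and spots marked as outliers. Of 56605 probes, 42787 were kept, which needed 1 group or more with 60% of its arrays well above background and a mean log2 signal of at least 4. They covered 19837 genes, probes of a gene being averaged, and 57 genes lacked a value on some array. Probes were named through RefSeq by accession (33889), symbol (9462) or synonym (489), and 12765 matched no gene. Promoter sequences were matched by symbol. The arrays' own annotation names build mm9, from which no coordinates were taken. The number of arrays limits the precision.

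Models were fitted with limma 3.58.1 and statmod 1.5.0 in R 4.3.3, on tables read with the package data.table in version 1.17.8. A limma model over all 8 groups of exposure and day gave the contrasts, with p-values adjusted by Benjamini-Hochberg over all genes, and a model over 16 groups those by sex. Replicates were separate mice. The script was tested on simulated data. Genes named are the 12 largest increases and decreases past the thresholds without overlap between the days (no clone names, receptors of the nose or genes dim in the higher group), up to 4 called members of each list, or its 2 of highest level, and the 5 largest differences from CRC in each direction. A few genes are not reported here by name, but list counts and medians include them. Members and the 50 lists (2 of them of sex genes) were chosen with earlier results of these data known. A fold change that one group could only bound was set against the lowest signal well above background. Alternatives were other normalizations, filters, blocks, weights and thresholds, and leaving out arrays. Leaving out both arrays labelled female 2, leaving out the 4 arrays that stood apart and using scan day 1 alone were added after the data had been seen.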

Additional observations from a re-analysis of the deposited data

Results flagged for a closer look

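Within the 4 arrays of a day, the gap between the most distant array and its nearest neighbour was divided by the range of the group, and values above Dixon's critical value mark an array that lies far from the other 3. Chance alone marks about 1 in 20 such groups. Of 96 groups of list levels 7 were marked, and of 246 groups of named genes 27. Male 2 of 14 days was the distant array in 13 of the 34 and female 2 of 7 days in 14. The ratio stands in parentheses.

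Female 2 of 7 days lay apart in the level of interferon-stimulated genes (0.916). Male 2 of 14 days lay apart in the level of neutrophils (0.961), T and NK cells (0.907), regenerating epithelium (0.867), squamous epithelium (0.895) and glutathione S-transferases (0.87). Female 2 of 14 days lay apart in the level of tuft cells (0.835). 

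Among single genes, female 2 of 7 days lay apart in Slc22a19 (0.873), R3hdml (0.927), Sval1 (0.95), Atp1b1 (0.872), Insl5 (0.906), Timp2 (0.83), F3 (0.845), Hoxb13 (0.961), Hoxb7 (0.894), Cyp4a29 (0.964), Gclm (0.948), Prdx6 (0.841) and Dbp (0.83). Male 2 of 7 days lay apart in Gpx2 (0.889). Female 1 of 7 days lay apart in Csf3 (0.882), Clca1 (0.851) and Cldn4 (0.871). In other genes male 2 of 14 days lay apart in R3hdml (0.928), Psca (0.908), Clca1 (0.857), Xcr1 (0.863), C3 (0.922), Jchain (0.832), Procr (0.859) and Cry2 (0.965). Last, female 2 of 14 days lay apart in Pou1f1 (0.926) and St6galnac1 (0.955).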

How the results depend on the processing

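No gene passed the adjusted p between the days under any alternative of normalization, filter, block, trend or weight (limma). Leaving out 1 array gave 0 to 1 genes, leaving out both arrays labelled female 2 gave 1 (Plppr4), leaving out the 4 arrays that stood apart gave 9, with 1 array left for 14 days that was taken to vary like the other groups, and scan day 1 alone gave 2. The DEG numbered 100 at a log2 fold change of 1.5, 313 with normexp, 928 with the authors' values, 805 with array weights, 854 without both arrays labelled female 2, 1179 in scan day 1 and 293 to 1027 with 1 array left out. The other alternatives gave 460 to 698. The difference from CRC gave 0 to 1 genes at the adjusted p and 737 (without CRC 7 days male 1) to 2807 (without CRC 7 days female 1) by fold change and unadjusted p. The difference between sexes gave 0 to 123 genes at the adjusted p with 1 array left out, the highest without male 1 of 14 days, which leaves 1 male, and 52 without both arrays labelled female 2. By fold change and unadjusted p it gave 257 to 2320, 233 with array weights and 1200 without both arrays labelled female 2. The sign turned for Insl5 (0.93) and Pyy (0.70) without the 4 arrays that stood apart, and for Cyp4a14 (-0.13) and Vmn1r191 (-0.11) in scan day 1. The causes were not tested.

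Replicate numbers were shared by both days. The deviations of same-numbered arrays correlated at 0.22 (male 1), 0.23 (male 2), -0.04 (female 1) and 0.62 (female 2), so that the numbers were not taken as pairs. A fit with the replicate block gave 0 genes at the adjusted p and 664 DEG, 294 up and 370 down.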
